A study of Vitis vinifera and Vitis quinquangularis with 24 samples.

Results

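The step from E-L 34 to E-L 35 in the skin of Danfeng-2 berries was followed in 6 of the 24 sequenced libraries, all 3 labelled Danfeng-2 E-L 34 and all 3 labelled Danfeng-2 E-L 35. Danfeng-2 is an accession of Vitis quinquangularis, a wild grape, and the labels give its tissue as grape skin. On the Eichhorn-Lorenz (E-L) scale of grapevine growth, E-L 34 is the stage at which berries soften and E-L 35 the stage at which they take on colour. The other 18 libraries were the Danfeng-2 skins at E-L 33 (hard green berries) and E-L 38 (ripe berries) and the skins of Cabernet Sauvignon, a wine cultivar of Vitis vinifera, at the same 4 stages, with 3 libraries a group. The labels name no treatment for any group and give neither vineyard, sampling day nor the number of berries behind a library. Total counts in the 6 libraries ran from 13828993 to 15250154 over 27711 gene models, and the series title puts resveratrol accumulation in the skin at its centre.

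Softening and colouring together make up veraison, the turn from berry growth to ripening. At this turn cell walls loosen, sugars accumulate, and in coloured grapes the flavonoid pathway of the skin ends in the glycosylation of anthocyanidins, which yields the stable red and blue pigments. Resveratrol comes from a side branch of the same phenylpropanoid route: stilbene synthase and chalcone synthase draw on the same substrates, and stilbenes are known to build up in the skin of ripening grapes and after stress. None of these genes could be looked up by name. The files hold identifiers without names, and 0 of 27711 could be found in the reference list of names, so genes are given here by identifier and position, and neighbouring genes as chromosome regions. For the same reason the tissue label was not checked against marker genes. In the sources used here no build of the coordinates was given.

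The 3 libraries of E-L 35 were not alike. Across the 18375 models tested, the correlation of log2 CPM (counts scaled to the size of the library) was 0.9895 between replicates 2 and 3 of E-L 35 and 0.9892 to 0.9894 between the 3 libraries of E-L 34. Replicate 1 of E-L 35 reached 0.9459 and 0.9464 with its partners and 0.9416 to 0.9430 with the E-L 34 libraries. With the ripe E-L 38 libraries it stood at 0.9112 to 0.9125, where its partners stood at 0.8817 to 0.8831. With E-L 34 the order was the other way round, at 0.9576 to 0.9597 for the partners. A chi-square test on the counts of library pairs, divided by its degrees of freedom, gave 1.981 to 3.291 for the E-L 34 pairs, 2.146 for E-L 35 replicates 2 and 3, and 100.1 and 100.9 for the pairs with replicate 1. The results of the step are therefore given with and without that library, and what sets it apart was not tested.

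Replicate 1 did not sit at 1 fixed point between the stages. For each model called without it, its level was placed on a scale on which the E-L 34 mean is 0% and the mean of replicates 2 and 3 is 100%. Over the 1004 models that rose it lay at a median of 41.6%, with quartiles of 0.27% and 87.7%. It was beyond its partners in 213 of them (21.2%) and below the E-L 34 mean in 246 (24.5%). Over the 1051 models that fell the median was 55.0%, with quartiles of 6.58% and 101.4%. In 273 of these (26.0%) replicate 1 had fallen further than its partners, and in 226 (21.5%) it stayed above the E-L 34 mean. Some genes were thus beyond the partners in this library and others short of them. The models were called from replicates 2 and 3 against E-L 34, and the same libraries set the scale. A place of replicate 1 short of 100% is therefore favoured by that choice.

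**Figure D1:**
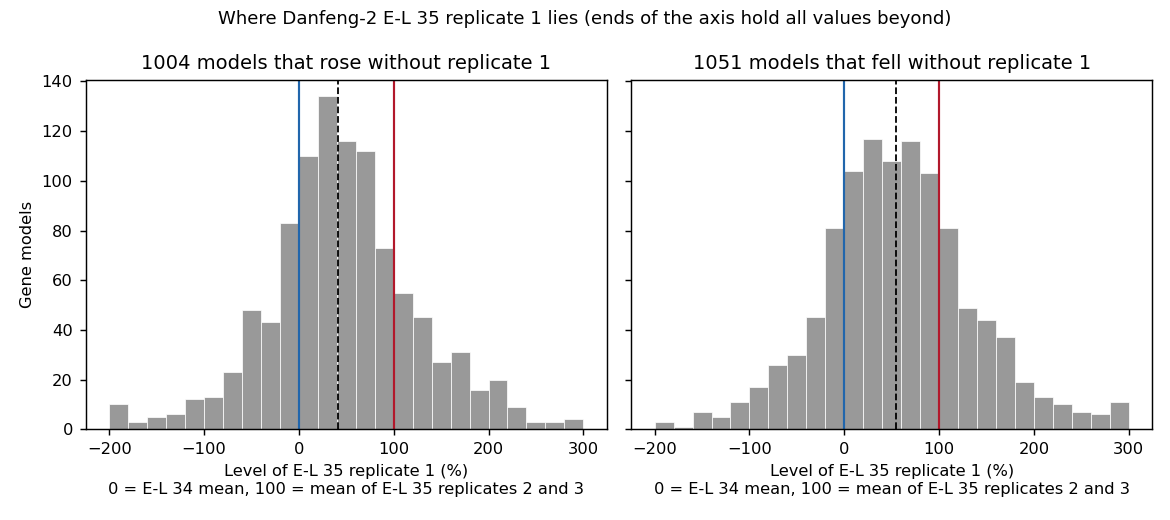
Number of gene models (y axis) by the level of Danfeng-2 E-L 35 replicate 1 in percent (x axis), on a scale from the E-L 34 mean (0, blue line) to the mean of E-L 35 replicates 2 and 3 (100, red line), for models called without replicate 1. The dashed medians lie at 41.6% for the 1004 models that rose and 55.0% for the 1051 that fell, and both distributions run past 0 and 100. The end bars hold all values beyond the axis. The models were called from the libraries that set the scale, which favours values below 100.

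The same library differed by at least 4-fold from the mean of its partners in 495 models above them (2.69%) and in 490 below (2.67%). In 408 of the former and 441 of the latter the E-L 38 mean lay on the same side of the partners as replicate 1 did. The E-L 34 mean lay on that side in 365 and 370. The median gap to the partners on the log2 scale was 1.8505 and -2.4564 for E-L 38. It was 0.7663 and -1.0048 for E-L 34, and 0.9879 and -0.9635 for E-L 33. These models were picked by the gap between replicate 1 and its partners, so a lean of other stages to its side may follow from that choice. No share over all tested models was set beside these counts, and a likeness of replicate 1 to ripe berries was not tested here. Replicates 2 and 3 differed from each other by at least 2-fold in 854 models (4.65%), and replicate 1 from their mean in 2117 models above and 1667 below.

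With all libraries, 892 models rose on the colouring step (4.85% of those tested) and 784 fell (4.27%), 9.12% together. A call required an adjusted p below 0.05 (edgeR quasi-likelihood test, Benjamini-Hochberg over 18375 models) and a change of at least 2-fold. Without replicate 1, 1004 rose (5.46%) and 1051 fell (5.72%), 11.2% together. The calls common to both fits were 686 rising (3.73%) and 623 falling models (3.39%), and no model was called in opposite directions. Which direction held more models thus depended on that library. With limma on log2(FPKM + 1), which changes the test, the scaling and the unit together, 465 rose and 685 fell. The median log2 fold change over all tested models was 0.02 with all libraries and -0.0041 without replicate 1, a value that the TMM scaling holds near 0.

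Large changes were more often rises. With all libraries 356 rising and 169 falling models changed at least 4-fold, 183 and 43 at least 8-fold, and 94 and 12 at least 16-fold. Without replicate 1 these counts were 347 and 234, 146 and 59, and 67 and 21. All 3 E-L 35 libraries lay above all 3 E-L 34 libraries in 716 of the 892 rising models (80.3%) and below them in 777 of the 784 falling ones (99.1%). Over all tested models 18.6% were separated upward and 21.3% downward in this way. 

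The 686 models that rose in both fits took 10250 to 10585 CPM in sum in the E-L 34 libraries. They took 36295 and 36616 CPM in E-L 35 replicates 2 and 3 and 25933 CPM in replicate 1. At E-L 33 the sum had been 11112 to 12048 CPM, close to that at E-L 34, and at E-L 38 it was 39669 to 40578 CPM. The 623 models that fell in both fits went from 52859 to 53949 CPM at E-L 34 to 18676 and 18721 CPM in replicates 2 and 3 and 20931 CPM in replicate 1. Their sum at E-L 38 was 27312 to 27484 CPM, above that at E-L 35, and at E-L 33 it ran from 43618 to 75462 CPM. These sums describe models picked for their change at this step, and in libraries from whole skin fewer cells of a type and less RNA per cell cannot be told apart.

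Calls that hung on replicate 1 were also described apart. The lists below were picked by whether this library made or broke the call, so its place in them follows largely from that choice. In the 206 rising models whose call was lost without replicate 1, that library stood a median of 2.26 above the E-L 34 mean on the log2 scale, and its partners 0.80. In the 161 falling ones with such a loss the medians were -1.93 and -0.96. In the 318 rising and 428 falling models whose call was gained by leaving it out, replicate 1 stood at medians of -0.06 and 0.05 from the E-L 34 mean, where its partners stood at 1.18 and -1.29.

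Individual genes showed both patterns. VIT_05s0077g01150, on the minus strand of chromosome 5 from 894812 to 896133, had 0.451, 0.424 and 0.127 CPM in the E-L 34 libraries. It had 73.6, 9.93 and 7.09 CPM in E-L 35 replicates 1, 2 and 3. All E-L 35 libraries were above all E-L 34 libraries, but a lack of overlap was required of every gene named from the step. Replicate 1 was far above its partners. The log2 fold change was 6.46 ± 0.83 (SE; edgeR adjusted p = 1.3e-05, n = 3 a group) and 4.64 ± 0.38 without replicate 1 (adjusted p = 3.4e-08). The level went on to 165.8, 167.1 and 166.6 CPM at E-L 38.

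VIT_01s0026g01380, on the plus strand of chromosome 1 from 10337712 to 10348270, had its highest level of the 4 stages at E-L 35. It had 0.515, 0.424 and 0.381 CPM at E-L 34 and 6.87, 29.2 and 31.3 CPM at E-L 35. Here replicate 1 was the low library of its group, though still above E-L 34. The log2 fold change was 5.65 ± 0.71 (SE; edgeR adjusted p = 1.1e-05) and 6.08 ± 0.60 without replicate 1 (adjusted p = 3.2e-07). At E-L 38 the libraries were back at 1.16, 1.06 and 1.15 CPM.

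VIT_14s0108g01020, on the minus strand of chromosome 14 from 29649227 to 29650876, was low at E-L 35 alone. It had 59.7, 67.4 and 62.4 CPM at E-L 34, then 2.50, 3.54 and 2.45 CPM at E-L 35, and 62.8, 57.0 and 61.6 CPM at E-L 38. The 3 libraries of E-L 35 lay together, replicate 1 included, and below every other Danfeng-2 library. The log2 fold change was -4.48 ± 0.87 (SE; edgeR adjusted p = 0.00081) and -4.40 ± 1.08 without replicate 1 (adjusted p = 0.0036). At E-L 33 the libraries had 1669, 83.3 and 78.3 CPM, so the replicate 1 of that stage stood far from its partners.

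VIT_11s0052g01300, on the plus strand of chromosome 11 from 19004251 to 19005363, fell from 126.3, 118.4 and 119.4 CPM to 12.6, 8.13 and 7.28 CPM. The libraries did not overlap, again as the choice of named genes required. The log2 fold change was -3.70 ± 0.61 (SE; edgeR adjusted p = 0.00020) and -3.98 ± 0.74 without replicate 1 (adjusted p = 0.00036). At E-L 38 it was again at 155.0, 145.0 and 156.2 CPM, and at E-L 33 at 63.9, 5.14 and 6.45 CPM. The dip at E-L 35 in these 2 falling genes lies between high levels at the stages on either side.

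**Figure D2:**
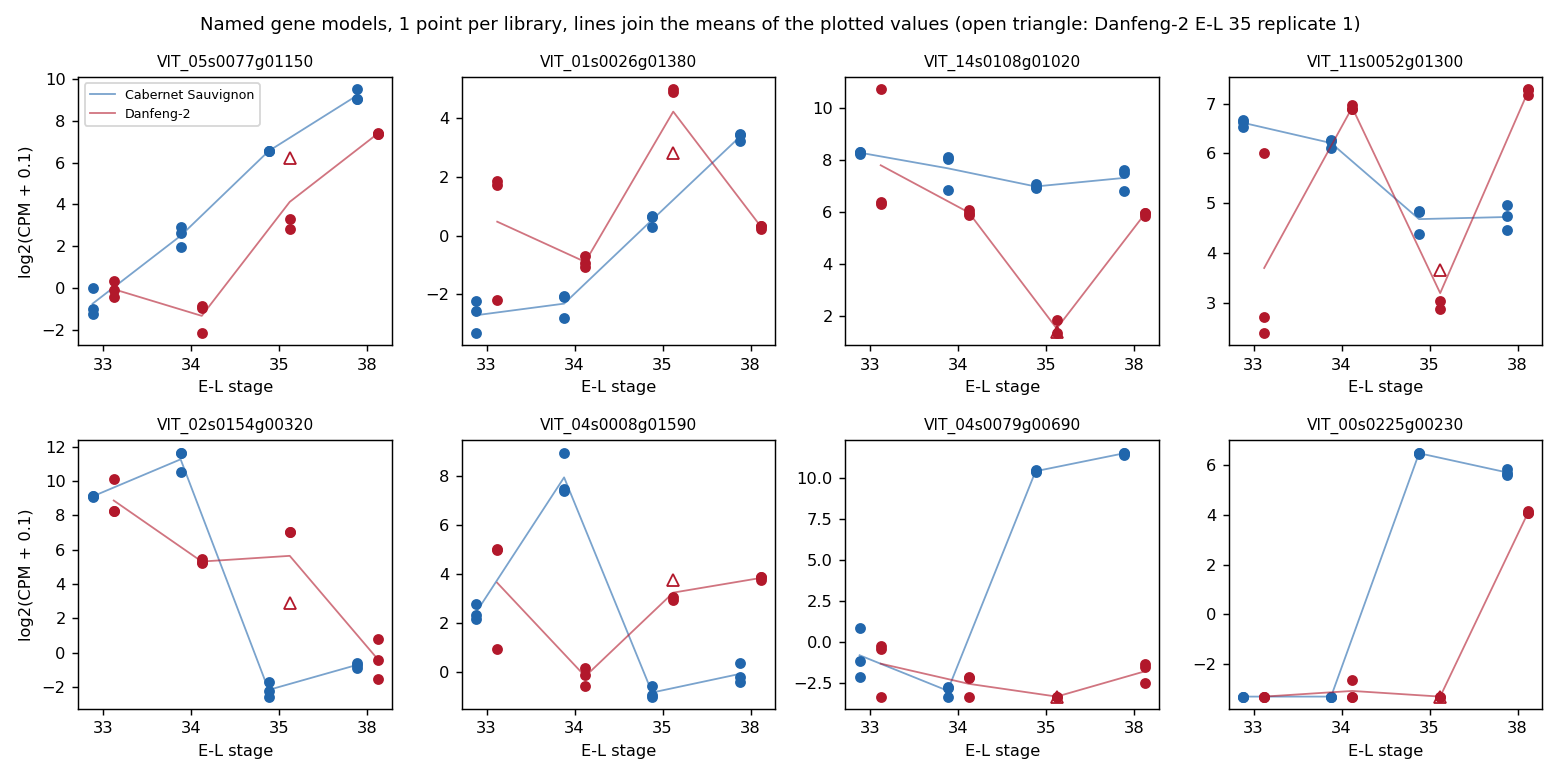
Level of the 8 named gene models as log2(CPM + 0.1) (y axis) at the 4 stages (x axis) in Cabernet Sauvignon (blue) and Danfeng-2 (red), 1 point per library; lines join the means and the open triangle is Danfeng-2 E-L 35 replicate 1. The top row holds the 4 models of the Danfeng-2 step and the bottom row the 4 chosen for a different step in the cultivars; at E-L 35 the red points of VIT_14s0108g01020 lie at 2.45 to 3.54 CPM.

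Neighbouring genes moved together at 6 places. These regions were found from the calls of this step, so the counts that chose them are a description: in each, at least 6 of 10 consecutive tested models were called in the same direction in 1 of the 2 fits. The rule found 4 regions that rose and 2 that fell.

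The longest rising region lay on chromosome 16 from 16238965 to 16711898 and held 27 tested models, 12 called up with all libraries and 24 without replicate 1. Its summed level was 529.5, 543.0 and 540.1 CPM in the E-L 34 libraries, 547.1 CPM in E-L 35 replicate 1 and 1861 and 1867 CPM in replicates 2 and 3. Replicate 1 was thus at the E-L 34 level, and its partners were 3.47-fold above that mean. Within the region replicate 1 was below all E-L 34 libraries in 15 of the 27 models and above them in 8. A model from 16615515 to 16617259 had 23.2, 23.8 and 24.95 CPM at E-L 34 and 17.6, 168.6 and 157.0 CPM at E-L 35. The last model, from 16710107 to 16711898, had 5.34, 4.91 and 6.10 CPM and then 37.6, 22.8 and 25.1 CPM, so there replicate 1 was the highest.

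The region had been at 39.2, 44.7 and 46.6 CPM at E-L 33 and stood at 439.1, 438.1 and 424.5 CPM at E-L 38. Its highest Danfeng-2 level was that of the E-L 35 partners. In Cabernet Sauvignon the same models went from 6.3, 6.2 and 45.5 CPM at E-L 34 to 2649, 2608 and 2682 CPM at E-L 35. All 27 were called up there, against 14.5% of all tested models. The change was smaller in Danfeng-2 by the test of the difference for 27 of 27 models, with and without replicate 1, where 10.6% and 12.6% of all tested models had a lower change. Since 23 of the 27 overlap another listed model, reads may be split or shared between them. The 4 that overlap none were all called up without replicate 1, but calls of this kind chose the region. The first of these 4, from 16238965 to 16240683, was not called with all libraries (log2 fold change 0.87, edgeR adjusted p = 0.069).

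A second region of chromosome 16, from 578418 to 849602, had 9 models among those tested, of which 5 rose with all libraries and 8 without replicate 1. It had 94.2, 86.5 and 88.6 CPM at E-L 34, 66.7 CPM in E-L 35 replicate 1 and 321.3 and 324.8 CPM in its partners. Replicate 1 was again the library without the rise, and below every E-L 34 library. At E-L 38 the sum was 66.1, 61.2 and 55.7 CPM, close to replicate 1 of E-L 35. Cabernet Sauvignon rose from 23.4, 21.5 and 42.2 to 693.3, 683.8 and 643.6 CPM, and the change was lower in Danfeng-2 by the test of the difference for 7 of 9 models, against 10.6% of all tested models. Of the 9 models 4 overlap another listed model.

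In the remaining rising regions replicate 1 was the high library. On chromosome 2 from 3754936 to 3825899, 7 models had 200.2, 214.7 and 213.6 CPM in sum at E-L 34. They had 7420 CPM in E-L 35 replicate 1, against 557.8 and 532.3 CPM in its partners. The sums at E-L 38 were 5934, 5840 and 5766 CPM, and at Cabernet Sauvignon E-L 35 they were 6905, 6832 and 6476 CPM. With all libraries 6 of the 7 rose, and 4 did without replicate 1. The model from 3799827 to 3812825, which overlaps none, had the highest level of the 7 at E-L 35, with 43.4, 50.1 and 46.4 CPM at E-L 34 and 5322, 328.9 and 305.7 CPM at E-L 35. Its log2 fold change was 5.41 (edgeR adjusted p = 4.7e-05) and 2.77 without replicate 1 (adjusted p = 2.5e-09). Another model, from 3824931 to 3825899, was the highest at E-L 34 (136.5, 143.4 and 142.0 CPM) and at E-L 38 (4120, 3956 and 4026 CPM), so the ripe sums rest mostly on a different model. It had 603.9, 151.7 and 149.5 CPM at E-L 35. The change was lower in Danfeng-2 than in Cabernet Sauvignon for 2 of the 7 models with all libraries (10.6% of all tested models) and for 3 without replicate 1 (12.6%), and nothing is read from so few models.

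On chromosome 5 from 7645441 to 7816560, 11 models had 3.3, 4.1 and 2.7 CPM in sum at E-L 34 and 58.8, 18.4 and 22.2 CPM at E-L 35. All 11 had their 3 E-L 35 libraries above all E-L 34 libraries, and replicate 1 was above both partners in 9. At E-L 38 the sum was 278.2, 339.0 and 290.9 CPM, of which the model from 7792158 to 7797141 made up 257.8, 308.7 and 268.0 CPM. The other 10 models together had 56.8, 17.2 and 20.3 CPM at E-L 35 and 20.4, 30.3 and 22.9 CPM at E-L 38, values that overlap. In Cabernet Sauvignon the sum went from 2.2, 2.6 and 2.4 to 561.8, 582.1 and 540.3 CPM within this same step, with 529.7, 548.6 and 512.1 CPM in that 1 model. With all libraries 10 models were called and without replicate 1 7 were. In 9 of the 11 another listed model overlaps, and 3 had 0 counts in all E-L 34 libraries.

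Of the falling regions the one on chromosome 11 from 18868022 to 19019512 held 15 models, 1 of which overlaps another, with 1044, 1065 and 1068 CPM in sum at E-L 34. It had 693.0, 316.7 and 315.6 CPM at E-L 35, so all E-L 35 libraries were lower, replicate 1 least. Of the 15 models 10 fell with all libraries, and 11 fell and 1 rose without replicate 1. The gap of replicate 1 lay largely in the model from 18981287 to 18982639, at 514.7, 549.3 and 557.3 CPM at E-L 34 and 567.6, 164.7 and 161.9 CPM at E-L 35. VIT_11s0052g01300 lies in this region. The model from 18903622 to 18907138 split the group, at 16.4, 15.5 and 16.6 CPM at E-L 34 and 8.47, 32.8 and 35.2 CPM at E-L 35. In others replicate 1 was near its partners, as in the model from 18989023 to 18994194, which went from 151.4, 149.6 and 146.6 to 24.1, 28.9 and 28.0 CPM.

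The sum of the chromosome 11 region came back to 751.1, 740.1 and 748.5 CPM at E-L 38, but not in all models. The model from 18981287 to 18982639 was down at 29.6, 30.1 and 27.9 CPM there. The other 14 models together had 529.5, 516.1 and 511.0 CPM at E-L 34 and 721.6, 710.0 and 720.6 CPM at E-L 38. In Cabernet Sauvignon the sum fell from 1139, 1164 and 887.9 to 188.8, 182.2 and 178.2 CPM at E-L 35. At E-L 38 it stayed at 200.1, 201.6 and 174.1 CPM. On this step the model from 18981287 went there from 815.1, 834.9 and 498.0 to 7.42, 7.01 and 6.64 CPM. The other 14 together went from 323.4, 328.6 and 389.9 to 181.4, 175.2 and 171.6 CPM. The summed level was lower at E-L 35 than at E-L 34 in every library of both cultivars. In Cabernet Sauvignon 5 of the 15 models fell (16.9% of all tested models did) and 2 rose, a share near the 14.5% of all tested models. By the test of the difference 8 of the 15 had a lower change in Danfeng-2, against 10.6% of all tested models, and 3 a higher one, against 13.4%. One of the 8, from 18940464 to 18942492, fell in Danfeng-2 from 10.6, 10.6 and 11.6 to 0.898, 0.558 and 0.628 CPM (log2 fold change -3.96, edgeR adjusted p = 6.8e-07) and rose in Cabernet Sauvignon (1.96, adjusted p = 2.9e-05).

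The other falling region, on chromosome 14 from 3958899 to 4175897, had 77.3, 83.8 and 85.0 CPM in sum over 10 models at E-L 34. It had 40.8, 30.0 and 32.6 CPM at E-L 35 and 18.3, 16.5 and 14.2 CPM at E-L 38. In sum all E-L 35 libraries were lower than all E-L 34 libraries, and the decline of the sum went on to ripeness. Single models departed from this. Replicate 1 was above all E-L 34 libraries in 2 of the 10 models. The model from 4034468 to 4038864 had 2.63, 1.24 and 2.07 CPM at E-L 35 and 3.77, 2.68 and 3.29 CPM at E-L 38. With all libraries 4 of the 10 models fell, and 7 did without replicate 1. Cabernet Sauvignon went from 63.9, 65.2 and 66.1 to 19.1, 18.5 and 19.6 CPM, and 4 of the 10 overlap another listed model.

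**Figure D3:**
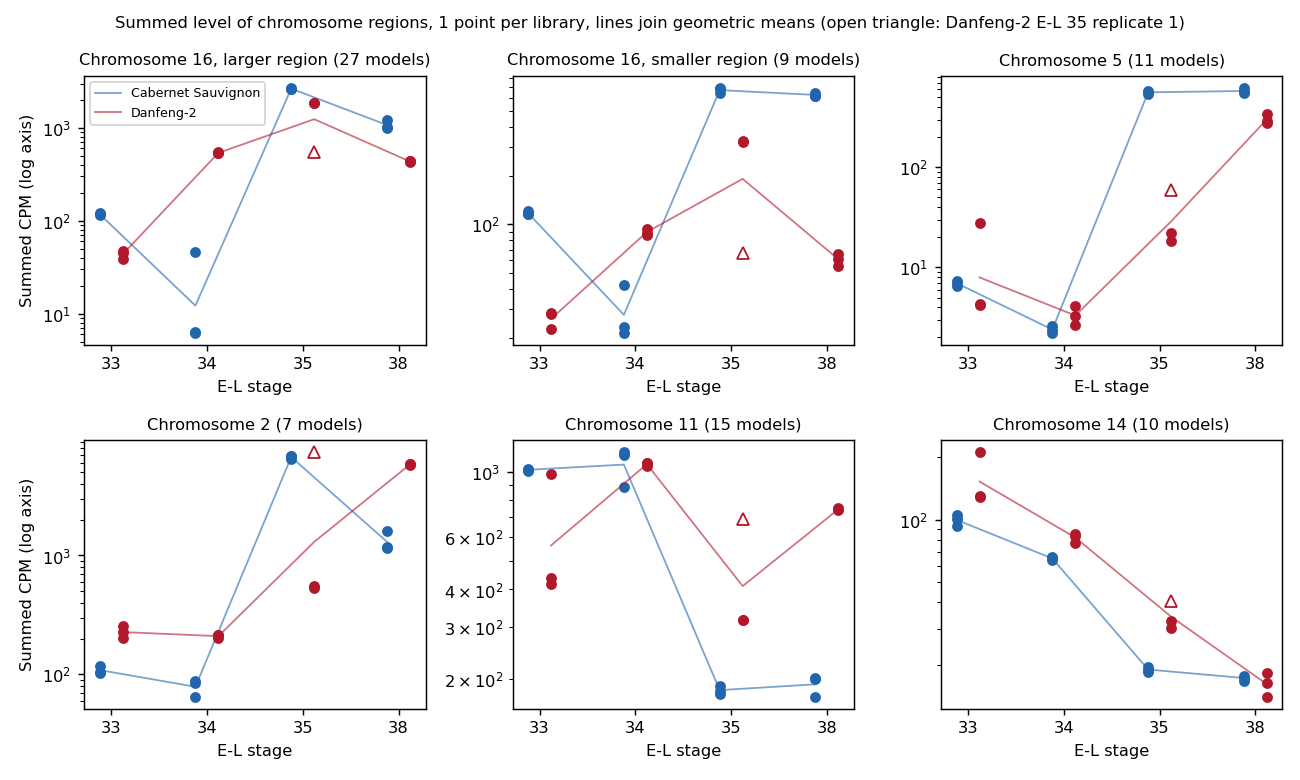
Summed CPM of the tested models of each region (y axis, log scale) at the 4 stages (x axis) in Cabernet Sauvignon (blue) and Danfeng-2 (red), 1 point per library; lines join geometric means and the open triangle is Danfeng-2 E-L 35 replicate 1. The triangle lies at the E-L 34 level in the larger chromosome 16 region (547.1 CPM against 529.5 to 543.0) and at the E-L 38 level or above in the chromosome 2 region (7420 CPM against 5766 to 5934).

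The same step in Cabernet Sauvignon, which shares no library with that of Danfeng-2, was wider. There 2670 models of 18375 rose (14.5%) and 3106 fell (16.9%), and without the 3 libraries of the series that stand apart from their partners (Danfeng-2 E-L 35 and E-L 33 replicate 1 and Cabernet Sauvignon E-L 34 replicate 3) 6698 were called (36.5%). The median size of the log2 fold change over all tested models was 0.66 in Cabernet Sauvignon and 0.34 in Danfeng-2 (0.39 without replicate 1). Changes of at least 8-fold numbered 1547 against 226 (205 without replicate 1).

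Of the 686 models that rose in Danfeng-2 in both fits, 364 also rose in Cabernet Sauvignon (53.1%, against 14.5% of all tested models) and 74 fell (10.8%, against 16.9%). Of the 623 that fell, 345 also fell there (55.4%, against 16.9%) and 38 rose (6.1%, against 14.5%). As a share of each list with all libraries, the 464 models that rose in both cultivars made up 52.0% of the Danfeng-2 list and 17.4% of the longer Cabernet Sauvignon list. The 433 that fell in both made up 55.2% and 13.9%. Across all tested models the Pearson correlation of the fold changes was 0.33, and 0.27 without replicate 1, as a description over genes that share the libraries.

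**Figure D4:**
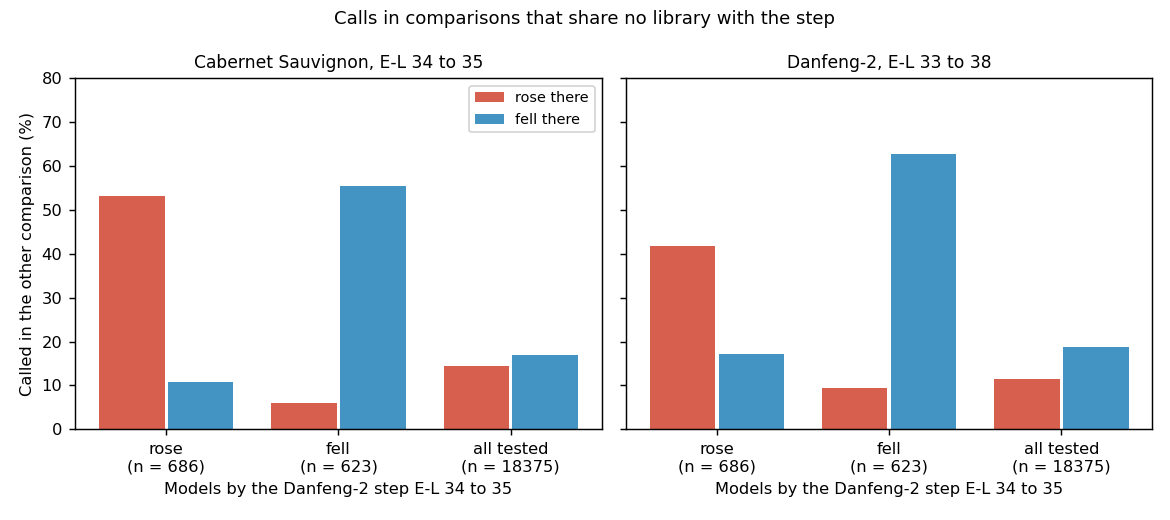
Percent of gene models called up (red) or down (blue) in a comparison that shares no library with the Danfeng-2 step (y axis), for the models that rose or fell in that step in both fits and for all tested models (x axis). Left, of the 686 risers 53.1% rose in Cabernet Sauvignon; right, of the 623 fallers 62.8% were lower in ripe than in hard green Danfeng-2 berries; all libraries.

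The difference of the steps was tested model by model. The change was higher in Danfeng-2 for 2457 models (13.4%) and lower for 1950 (10.6%), and without replicate 1 for 2452 (13.3%) and 2317 (12.6%). Much of this came from genes that moved in Cabernet Sauvignon. Of the 2156 models that rose there and were not called in Danfeng-2, 1270 had a lower change in Danfeng-2 by this test, and of the 2582 that fell there and were not called in Danfeng-2, 1702 had a higher change. Of the 464 that rose in both cultivars, 170 rose less and 7 more in Danfeng-2. Of the 433 that fell in both, 164 fell less and 5 more.

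Opposite calls were fewer. With all libraries 91 models rose in Danfeng-2 and fell in Cabernet Sauvignon, and 50 did the reverse; without replicate 1 these were 137 and 96. The difference was called in all of them, as opposite changes of at least 2-fold make likely. A further 337 models rose in Danfeng-2 with no call in Cabernet Sauvignon, and the difference was called for 176 of them. Of the 301 that fell with no call in Cabernet Sauvignon it was called for 145. For the rest of these no difference between the cultivars was shown.

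**Figure D5:**
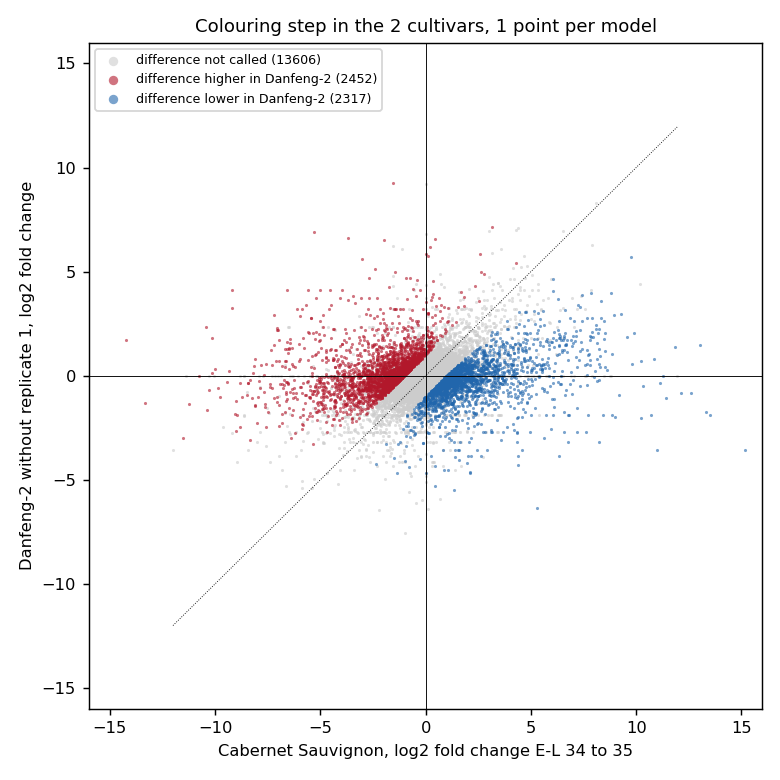
Log2 fold change from E-L 34 to E-L 35 in Danfeng-2 without replicate 1 (y axis) against that in Cabernet Sauvignon (x axis), 1 point per tested model; red and blue points are models whose step was higher (2452) or lower (2317) in Danfeng-2 by the edgeR test of the difference without replicate 1. The dotted line marks equal change, and the cloud is wider along the Cabernet Sauvignon axis.

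Both rising genes named above also rose in Cabernet Sauvignon. VIT_05s0077g01150 went from 6.04, 7.55 and 3.81 to 93.0, 94.2 and 92.9 CPM there (log2 fold change 4.01 ± 0.60, SE; edgeR adjusted p = 1.0e-05). VIT_01s0026g01380 went from 0.044, 0.141 and 0.134 to 1.13, 1.48 and 1.46 CPM (3.6 ± 0.91; edgeR adjusted p = 0.0022). The difference between the cultivars was called for neither with all libraries (adjusted p = 0.076 and 0.28). Without the 3 libraries that stand apart it was called for VIT_01s0026g01380, at 2.34 on the log2 scale (edgeR adjusted p = 0.029), and not for VIT_05s0077g01150, at 0.92 (adjusted p = 0.22). For both falling genes the difference was called. They were named for the largest falls in Danfeng-2, and the test uses those same values, so a larger fall there is favoured by the choice. VIT_14s0108g01020 had 279.2, 265.1 and 115.6 CPM at Cabernet Sauvignon E-L 34 and 122.7, 134.7 and 121.2 CPM at E-L 35, and the difference of the log2 fold changes was -3.67 ± 1.09 (SE; edgeR adjusted p = 0.011). VIT_11s0052g01300 fell in both, from 76.4, 77.1 and 68.6 to 28.5, 28.4 and 20.7 CPM in Cabernet Sauvignon, and fell further in Danfeng-2 (difference -2.18 ± 0.80, SE; edgeR adjusted p = 0.034). Without the 3 libraries that stand apart these differences were -3.22 for VIT_14s0108g01020 and -2.33 for VIT_11s0052g01300.

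In the models with the widest difference the larger change was that of Cabernet Sauvignon. VIT_02s0154g00320, on the minus strand of chromosome 2 from 5141572 to 5142327, went there from 3165, 3222 and 1467 CPM to 0.071, 0.202 and 0.117 CPM. In Danfeng-2 it had 37.0, 43.4 and 38.9 CPM at E-L 34 and 7.38, 129.1 and 129.7 CPM at E-L 35. The Danfeng-2 change was 1.16 on the log2 scale with all libraries (edgeR adjusted p = 0.20) and 1.70 without replicate 1 (adjusted p = 0.0050), since replicate 1 was below and its partners above E-L 34. The difference of the log2 fold changes was 15.37 ± 1.35 (SE; edgeR adjusted p = 4.0e-08).

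VIT_04s0008g01590, on the minus strand of chromosome 4 from 1251984 to 1252699, rose in Danfeng-2 from 0.579, 1.03 and 0.825 to 13.3, 7.57 and 8.22 CPM. In Cabernet Sauvignon it fell from 169.7, 177.8 and 494.9 to 0.424, 0.404 and 0.583 CPM. The libraries overlapped in neither cultivar, and the difference was 12.74 ± 1.14 (SE; edgeR adjusted p = 5.0e-08). Cabernet Sauvignon E-L 34 replicate 3 was the odd library in both of these genes, and without the 3 libraries that stand apart the difference was 16.26 for VIT_02s0154g00320 and 11.81 for VIT_04s0008g01590.

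In the other direction, VIT_04s0079g00690 and VIT_00s0225g00230 came on at E-L 35 in Cabernet Sauvignon and had 0 counts in Danfeng-2 at E-L 35. VIT_04s0079g00690, on the minus strand of chromosome 4 from 11505001 to 11507285, had 2 counts over the 3 Cabernet Sauvignon E-L 34 libraries and 1329, 1440 and 1365 CPM at E-L 35. In Danfeng-2 it had 4 counts over the E-L 34 libraries and 0 over those of E-L 35, with 29 counts at E-L 33 and 8 at E-L 38. It was thus barely read at any Danfeng-2 stage. The cultivars are of different species, and whether reads of both map equally well to a model was not tested. A gene that stays off in Danfeng-2 cannot be told from one that is absent or whose reads are missed. VIT_00s0225g00230, in sequence not assigned to a chromosome, had 0 counts at Cabernet Sauvignon E-L 34 and 90.0, 91.1 and 88.1 CPM at E-L 35. Set against 3 counts over the 3 libraries, an approximate upper limit used here for a count of 0, it was higher by about 1989-fold or more. In Danfeng-2 it had 1 count in the E-L 34 libraries and 0 in those of E-L 35, then 17.8, 16.7 and 16.96 CPM at E-L 38. The edgeR adjusted p of the difference was 0.00037 for VIT_04s0079g00690 and 0.00010 for VIT_00s0225g00230. The Danfeng-2 side of these tests rests on 4 counts and 1 count. For VIT_00s0225g00230 the call was lost when the library with that 1 count was left out. The fitted folds of genes at 0 depend on the prior count, so none is given here as a size.

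The whole span of Danfeng-2 from hard green to ripe berries, E-L 33 against E-L 38, shares no library with the step. Of the 623 models that fell, 391 also fell over the span (62.8%, against 18.8% of all tested models) and 58 rose (9.31%, against 11.5%). Of the 686 that rose, 287 also rose over the span (41.8%, against 11.5%) and 118 fell (17.2%, against 18.8%). Without the 3 libraries that stand apart these counts were 373 and 73 of the fallers and 279 and 136 of the risers, against 18.7% falling and 12.3% rising of all tested models. Both lists thus moved over the span in their own direction above the background, and the difference between their shares was itself not tested.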

How the data were processed

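Whole grape skins were sequenced in 24 libraries, and 1 table per library was deposited by the authors. Per the submitters' processing notes TopHat2 was used; no counting program, use of strand or build was given in the sources used here. Per the file headers each table holds a Count and an FPKM value per gene model. The deposited counts are whole numbers, but for 60.8% to 64.9% of the values the count equals, within 0.02, the deposited Normalized value over 1 factor per library, so a part may be rounded estimates. The FPKM values were computed by the authors, in a way the sources used here do not describe, and served as an alternative. Libraries held 13201295 to 23095568 counts, and 4474 models were at 0 in all.

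The counts were tested with edgeR 4.0.16 in R 4.3.3: filterByExpr (18375 models kept), TMM scaling and a quasi-likelihood fit of 8 groups over 24 libraries, repeated without Danfeng-2 E-L 35 replicate 1 on the same models. The common biological coefficient of variation was 0.2004, and 0.1668 without that library. A call required a Benjamini-Hochberg adjusted p below 0.05 and at least 2-fold. CPM are counts over the TMM-scaled library size, and log2 CPM used a prior count of 1. Whether the 3 libraries of a group are separate plants or pools is not in the labels, so the spread behind each p-value may be technical. Bounds and floors cover counting error only. The procedure was tested on simulated data that held no library standing apart from its partners, so that test does not cover replicate 1.

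Named genes were the first 2 in each direction of the Danfeng-2 step by log2 fold change, and the first 2 in each direction of the difference between cultivars. They had to be called with and without replicate 1, and reach 20 CPM in the highest group. For the step the libraries of E-L 34 and E-L 35 had to be free of overlap; for the difference the ratios of E-L 35 to E-L 34 libraries had to be free of overlap between the cultivars. Regions came from windows of 10 consecutive tested models with at least 6 called. Gene lists written as product names were not run, because no identifier could be paired with a name. The comparison, lists and rules were chosen with earlier results of these data known. Replicate numbers of E-L 34 and E-L 35 did not pair the libraries: deviations of same-numbered libraries correlated at -0.0125, 0.0084 and 0.0015.

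Alternatives were RLE size factors, other filters, limma 3.58.1 with 1 or 0.1 added to FPKM before log2, DESeq2 1.42.0, a replicate block, fits of fewer groups, other thresholds, other windows, and leaving out libraries.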

Additional observations from a re-analysis of the deposited data

Results flagged for a closer look

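By the edgeR test of the difference itself, 4407 models changed differently in the cultivars on the colouring step, and for 4769 without Danfeng-2 E-L 35 replicate 1. Among the named genes the difference of the log2 fold changes, Danfeng-2 minus Cabernet Sauvignon, was -3.67 for VIT_14s0108g01020, -2.18 for VIT_11s0052g01300, 15.37 for VIT_02s0154g00320 and 12.74 for VIT_04s0008g01590. VIT_14s0108g01020 and VIT_11s0052g01300 were named for their fall in Danfeng-2 and the others for the difference itself. Large values are favoured by both choices. The fitted values for VIT_04s0079g00690 (-18.73) and VIT_00s0225g00230 (-15.42) involve groups at 0 and depend on the prior count, so they give a direction and no size.

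Over all tested models 13.4% had a higher and 10.6% a lower change in Danfeng-2. The difference was called, always lower, for 27 of 27 models in the larger chromosome 16 region and 7 of 9 in the smaller one. On chromosome 11 it was called for 11 of 15 (3 higher, 8 lower) and on chromosome 14 for 4 of 10 (all higher). The 4 of 11 on chromosome 5 (2 higher, 2 lower) and 2 of 7 on chromosome 2 (both lower) rest on few models, and nothing is read from them. All groups have 3 libraries, too few for a check of single libraries by their gap to the next.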

How the results depend on the processing

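The Danfeng-2 step had 1676 calls, and 20 alternatives gave between 730 and 4897. More models rose in 11 of these 20 and more fell in 9, so the balance of rises and falls was not settled. Without a fold minimum the calls were 4897 for the Danfeng-2 step, 11002 for Cabernet Sauvignon, 7621 for the difference and 10572 for the Danfeng-2 span from E-L 33 to E-L 38. Leaving out single libraries gave 1365 to 2055, 5480 to 6370, 4133 to 4820 and 5322 to 5579 in that order. Totals of calls under the remaining alternatives, apart from the fit of the 6 libraries with the block, stayed within 1.5 times. The separate directions of the Danfeng-2 step did not, besides those fits: from 892 the rising count went to 465 and 477 with limma on log2(FPKM + 1), with and without the filter, and to 567 with the 6 libraries alone. From 784 the falling count went to 1300 without the 3 libraries that stand apart and to 1190 with the 6 libraries alone without replicate 1. The replicate block gave 1629 calls over 24 libraries and 730 in a fit of the 6 libraries alone, where 1241 were called without it; the numbers do not pair the libraries. With windows of 15 models 2 rising and 1 falling region remained of 4 and 2. No named gene changed direction. VIT_00s0225g00230 lost its call without Danfeng-2 E-L 34 replicate 2, which held its 1 count there. DESeq2 gave no adjusted p for 3 of the 4 genes named from the step. With 13828993 to 15250154 counts a library, genes of a few counts are unresolved.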

Other observations

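The calls were spread unevenly over the genome and over levels. On chromosome 16, 7.47% of 683 tested models rose (10.4% without replicate 1), against 4.85% (5.46%) of all tested models. The 2 regions described above held 12 and 5 of these 51 risers, and 24 and 8 of the 71 without replicate 1. On chromosome 17 3.49% of 774 models rose with all libraries, and the share was also 3.49% without replicate 1. On chromosome 11, 6.77% of 813 models fell (8.0% without replicate 1), against 4.27% (5.72%). The region described there held 10 of these 55 fallers, and 11 of the 65 without replicate 1. Of the third of models with the lowest mean FPKM 6.82% rose and 3.98% fell, and of the third with the highest 3.41% rose and 4.78% fell. Without replicate 1 the rising shares were 6.69% and 4.18% and the falling shares 5.71% and 5.86%. Of 553 tested models that the identifiers mark as newly predicted 2.71% rose and 3.07% fell. These shares are descriptions with no test.

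Some models had no reads in any Danfeng-2 E-L 34 library. In 19 models with 0 counts there, E-L 35 replicates 2 and 3 each had at least 10 counts, and 6 of these 19 also had 0 counts in replicate 1. In 13 others replicate 1 had at least 10 counts and neither partner did. No model had at least 10 counts in each E-L 34 library and 0 in E-L 35 replicates 2 and 3.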
